A study of Mus musculus with 8 samples.

Results

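The genes of the MHC class II system were followed in B-1a cells of PTIP knockout mice, with 9 of them measured: the transactivator gene Ciita, the RFX complex genes Rfx5, Rfxap and Rfxank, the classical chain genes H2-Aa and H2-Ab1, and the genes of the peptide exchange machinery H2-DMa, H2-DMb1 and H2-Oa. They come from a list of 10 symbols, out of 22180 genes tested. The listed gene Cd74, which encodes the invariant chain, was not analysed here. Each gene was represented by the annotated probe set with the highest mean over all 8 arrays. The probe set was thus chosen by its level and not by its difference between genotypes. Each of the 9 genes had 1 probe set annotated to it alone, so the level decided nothing here. Rfx5, Rfxank and H2-Oa each have 1 further probe set that the annotation shares with another gene, which was not used.

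B-1a cells are innate-like B cells that live in the body cavities and make natural antibody. Here they were sorted from the peritoneal cavity of mice aged 5 weeks. KO mice were PTIPflox/flox, and control mice, labelled WT, were PTIP+/+. Both groups carried 1 copy of the same Cre allele, which is active in the B lineage, and the control is not a mouse without Cre. Cells of 29 KO and 22 control mice made up 4 pools per genotype, each measured on 1 array, so every value is that of a pool of mice. PTIP is the product of Paxip1, a subunit of histone H3K4 methyltransferase complexes, and the design asks which transcripts depend on it in B-1a cells.

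MHC class II molecules are heterodimers of an alpha and a beta chain that present peptides from the endosome to CD4 T cells, and B cells express them constitutively. Their genes share an upstream module of an S, an X and a Y box. The RFX complex (RFX5, RFXAP and RFXANK) binds the X box and NF-Y binds the Y box, and CIITA, which does not bind DNA itself, docks on these factors and sets the level of transcription. In the endosome the heterodimer H2-DM exchanges the invariant chain fragment for peptide, and the heterodimer H2-O restrains H2-DM in B cells.

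Upstream stretches of 6 class II genes are shown because the module that RFX and NF-Y bind lies there. They come from RefSeq promoters of build GRCm38.p6 and run from 45 bases before to 5 bases after an ATTGG, the Y box read on the gene's strand. Capitals mark that ATTGG and, where present, the RFX motif AGNAAC at 20 to 36 bases before it. The choice of this window followed a look at the sequences. The stretches are given in the order of the classical genes, the H2-DM beta genes and the H2-O genes, each 5′ to 3′ on the gene's strand.
H2-Aa: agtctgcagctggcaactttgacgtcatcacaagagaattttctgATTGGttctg
H2-Eb1: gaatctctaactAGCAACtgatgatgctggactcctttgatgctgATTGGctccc
H2-DMb1: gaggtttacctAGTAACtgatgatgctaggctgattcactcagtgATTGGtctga
H2-DMb2: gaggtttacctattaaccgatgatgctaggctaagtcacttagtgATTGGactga
H2-Oa: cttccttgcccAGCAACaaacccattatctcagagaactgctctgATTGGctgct
H2-Ob: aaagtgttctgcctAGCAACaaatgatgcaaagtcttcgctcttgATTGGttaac
These lie at chr17:34287862-34287916 on the minus strand for H2-Aa and on the plus strand at chr17:34305763-34305817 for H2-Eb1, chr17:34153085-34153139 for H2-DMb1, chr17:34145114-34145168 for H2-DMb2, chr17:34092291-34092345 for H2-Oa and chr17:34238803-34238857 for H2-Ob.

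The spaced pair of AGNAAC and ATTGG, searched on both strands from 250 bases before to 50 bases after a gene start, was present in 2 of the 6 listed genes with a promoter in the table, H2-DMb1 and H2-Oa. The 6 include Rfx5 and Rfxank, which are regulator genes and not class II genes. The pair was also present in 3 of 4 further class II genes, H2-Ob, H2-Eb1 and H2-Eb2. H2-Aa has ggcaac in its stretch, which AGNAAC does not match. The promoters of Ciita, Rfxap and H2-Ab1 were not analysed here. Of all 32851 promoters 0.907% held the pair, 48.1% held an AGNAAC and 37.4% held CCAAT, the Y box on either strand. The Y box lay 61 bases before the gene start in H2-DMb1, 43 in H2-Oa, 48 in H2-Aa, 59 in H2-Eb1, 90 in H2-DMb2 and 57 in H2-Ob. The stretches of H2-DMb1 and H2-DMb2, neighbouring paralogs on chromosome 17, were the same at 49 of 55 positions. A match describes these letters only and is not evidence of binding, and the lack of a match is not evidence against it.

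The deposited values are log2 values made with RMA, which sets all arrays to a shared distribution before probes are combined into probe sets. The probe set values themselves need not share it. Array medians lay between 3.68 and 3.74. A difference of 1 on this scale is a doubling, and every difference below is KO minus control. Paxip1, the floxed gene, stood at 4.38 ± 0.54 in KO and 7.05 ± 0.13 in control (SD, n = 4 pools each), a difference of -2.67 (SE 0.22; limma, adjusted p = 9.96e-05). KO was compared with control with limma across all 22180 genes, and a gene with an adjusted p under 0.05 is described as having risen or fallen. Of all genes 3.59% passed, 466 of them (2.10%) lower and 331 (1.49%) higher in KO. With quantile normalization repeated this split was 374 lower and 412 higher. KO pools 1 and 2 had the highest mean level of T cell markers, so the results that rest on them are also given without them.

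The transactivator and 1 subunit of the RFX complex fell in KO cells, while the classical chain genes did not pass the test. Of the 9 genes, 3 fell (Ciita, Rfx5 and H2-DMb1) and none rose, against 2.10% of all genes lower and 1.49% higher. An unadjusted p under 0.05 in limma was seen for 5 of the 9, and for 15.3% of all genes. At an adjusted p under 0.01 Ciita alone passed, against 1.40% of all genes, and under 0.10 those 3 and H2-Oa passed, against 5.42%. The KO and control pools did not overlap for 4 of the 9, those 3 and H2-Oa, as was so for 10.5% of all genes. The median difference of the 9 genes was -0.28, against 0.02 over all genes. The list was drawn up with earlier results of these arrays known, so these counts describe it and support nothing further. In RNA of sorted cells, fewer cells that express a gene and less RNA of it per cell cannot be told apart.

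**Figure D1:**
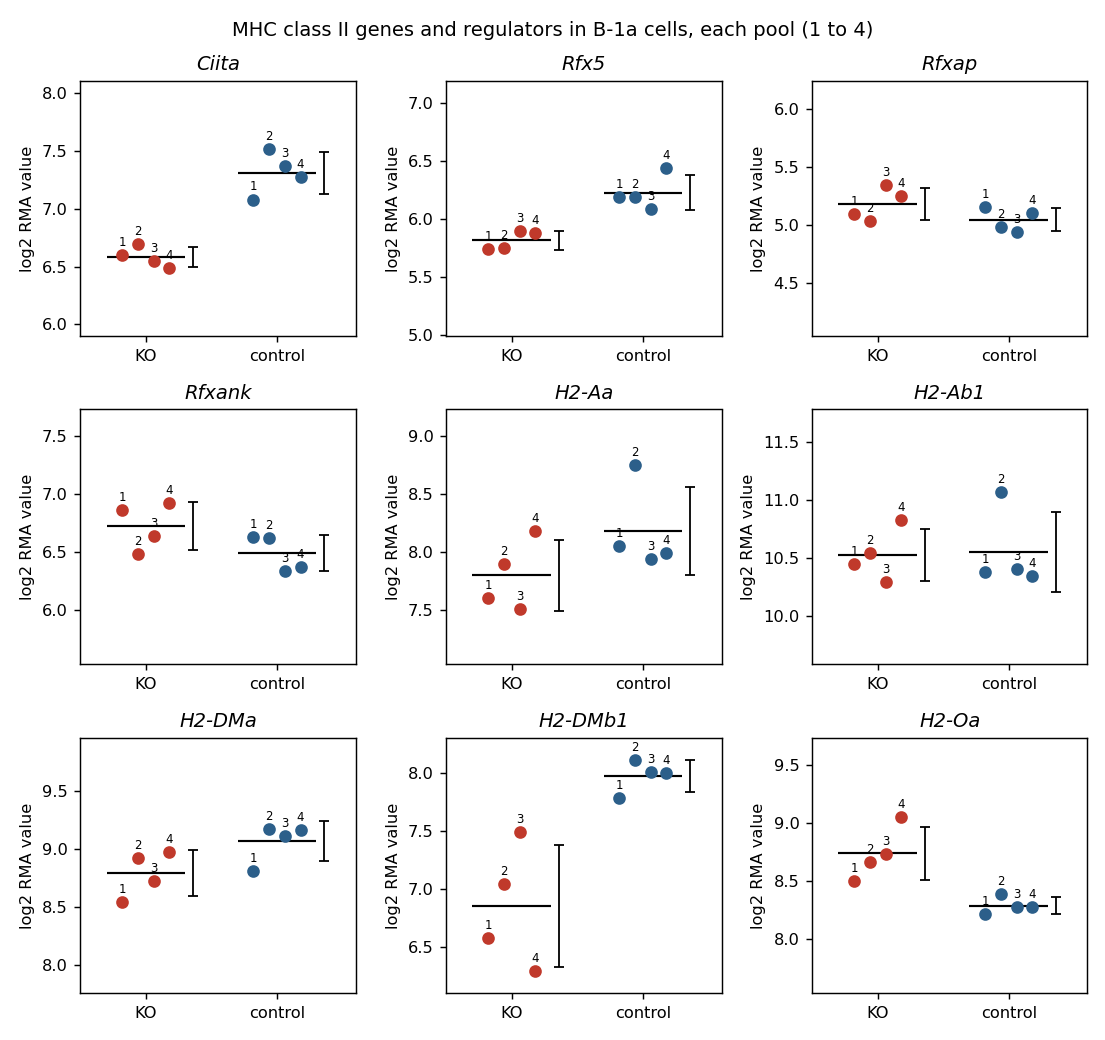
Log2 RMA values (vertical axes, each spanning 2.2 units) of the 9 genes in the 4 KO pools (red, left) and the 4 control pools (blue, right), with the pool number at each point, the group mean as a line and its SD as a bar. KO and control pools separate for Ciita, Rfx5, H2-DMb1 and H2-Oa and overlap for the other genes.

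Ciita had 6.60, 6.70, 6.55 and 6.48 in KO pools 1 to 4, against 7.08, 7.52, 7.37 and 7.27 in control pools 1 to 4. The KO pools were nearly level with each other and all lay below the lowest control pool. The group means were 6.58 ± 0.09 in KO and 7.31 ± 0.18 in control (SD, n = 4 each), a fall of 1.65-fold. The difference was -0.73 (SE 0.10, 95% confidence interval -0.95 to -0.50; limma, adjusted p = 0.00291). Ciita passed the test in all 22 alternatives, with differences from -0.80 to -0.66 and adjusted p up to 0.0385. The 3 genes outside the list with the profile nearest to that of Ciita over the 8 arrays were BC064078, Ffar4, a fatty acid receptor gene, and Agfg2. Their centred values differed from those of Ciita by a root mean square of 0.10, 0.11 and 0.11, and their differences were -0.80, -0.57 and -0.77. They were chosen for this likeness, so a lower level in KO came with the choice and is given with no test. Of these genes Ffar4 was dim, between 2.92 and 3.203 in KO and between 3.531 and 3.765 in control. The median of all values was 3.71.

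Rfx5, the DNA-binding subunit of the RFX complex, had 5.74, 5.75, 5.89 and 5.88 in the KO pools, against 6.19, 6.19, 6.08 and 6.44 in the controls. All KO pools lay below all control pools. The difference was -0.41 (SE 0.09, interval -0.62 to -0.20; limma, adjusted p = 0.0386). The call was lost in 15 of 22 alternatives, which included the omission of any pool except control pool 3 (adjusted p = 0.0520 to 0.106). The differences without 1 pool ran from -0.46 to -0.34. The mean of 14 T cell marker genes per pool ran from 5.28 to 7.27 in KO and from 4.67 to 5.64 in control. With this mean in the model the difference of Rfx5 was -0.30 (adjusted p = 0.334), and without KO pools 1 and 2 it was -0.34 (adjusted p = 0.263).

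The other RFX subunits did not pass the test, and their differences had the opposite sign. Rfxap, which encodes the RFX-associated protein, had 5.09, 5.04, 5.35 and 5.25 in KO pools and 5.15, 4.98, 4.94 and 5.11 in control pools, with overlapping groups and a difference of 0.14 (interval -0.07 to 0.34; limma, adjusted p = 0.565). Rfxank, which encodes the ankyrin repeat subunit, had 6.86, 6.48, 6.63 and 6.92 in KO pools and 6.63, 6.62, 6.34 and 6.37 in control pools. Its groups overlapped as well, and its difference was 0.23 (interval -0.03 to 0.49; limma, adjusted p = 0.385).

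The classical chain genes had large spread within groups, and neither passed the test. H2-Aa, the alpha chain of I-A, had 7.61, 7.90, 7.51 and 8.19 in KO pools 1 to 4, against 8.05, 8.75, 7.94 and 7.99 in control pools 1 to 4. H2-Ab1, the beta chain of I-A, had 10.45, 10.54, 10.29 and 10.83 in KO pools and 10.38, 11.07, 10.40 and 10.35 in control pools. Both genes were highest in pool 4 among KO pools and in pool 2 among control pools, and the groups overlapped for both. The difference was -0.38 for H2-Aa (interval -0.81 to 0.04; limma, adjusted p = 0.384). For H2-Ab1 it was -0.02 (interval -0.39 to 0.35; adjusted p = 0.973). The interval of H2-Aa includes a difference of the size seen for Ciita, and that of H2-Ab1 does not. Without control pool 2 the differences were -0.19 for H2-Aa and 0.15 for H2-Ab1, neither past the test.

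The E chain genes, which stand beside them on the chromosome, also stayed short of the threshold. H2-Eb1, the E beta chain, averaged 10.05 ± 0.11 in KO and 10.23 ± 0.17 in control, a difference of -0.18 (interval -0.41 to 0.04). RefSeq annotates H2-Ea, the E alpha gene, as a transcribed pseudogene. H2-Ea was bright here, at 11.91 ± 0.06 in KO and 12.04 ± 0.14 in control, and differed by -0.13 (interval -0.33 to 0.06). H2-Eb2 was dim, between 3.18 and 3.85 in KO and between 3.23 and 4.18 in control, and differed by -0.01 (interval -0.45 to 0.42). Adjusted p in limma was 0.454, 0.543 and 0.990 in the same order.

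**Figure D2:**
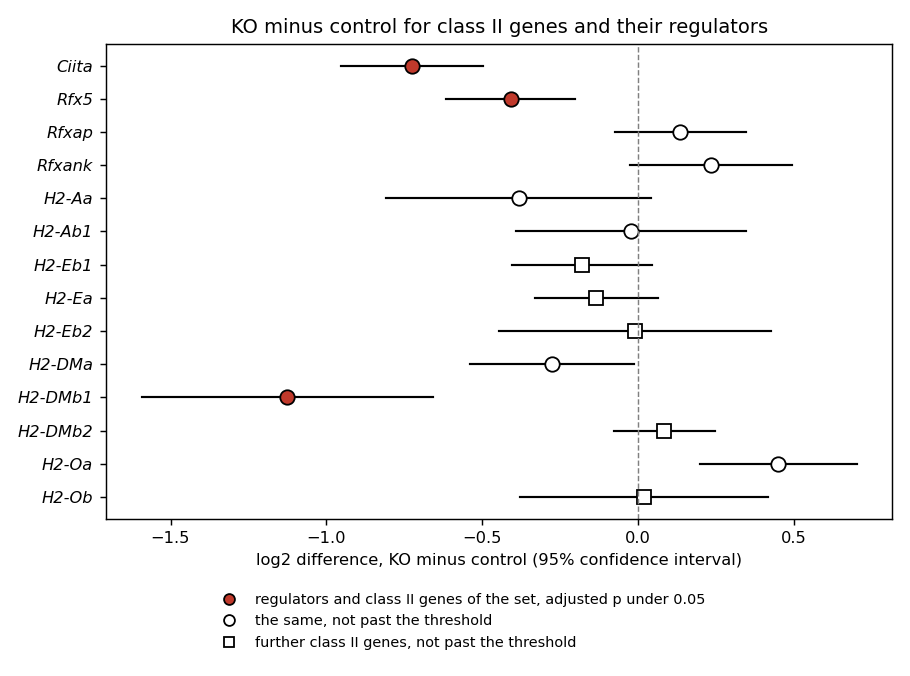
Log2 difference, KO minus control, with its 95% confidence interval (horizontal axis) for the 9 genes (circles) and 5 further class II genes (squares), n = 4 pools per group. Filled points passed an adjusted p under 0.05. Ciita, Rfx5 and H2-DMb1 lie left of 0, and the intervals of both I-A chains include 0.

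In the peptide exchange machinery the largest fall of the 9 genes, that of H2-DMb1, stood beside genes that did not pass the test. H2-DMb1, a beta chain gene of H2-DM, had 6.57, 7.04, 7.49 and 6.29 in KO pools 1 to 4, against 7.78, 8.11, 8.01 and 8.00 in control pools 1 to 4. The SD was 0.53 among KO pools and 0.14 among control pools, and all KO pools lay below all control pools. It fell 2.18-fold, with a difference of -1.13 (SE 0.21, interval -1.59 to -0.66; limma, adjusted p = 0.0146). Leaving out any 1 pool kept the call (differences from -1.34 to -0.94, adjusted p up to 0.0482). The call ended at an adjusted p under 0.01, and also with all probe sets tested (adjusted p = 0.0589), without moderation of the variance (0.136), without KO pools 1 and 2 (0.112) and with mean T cell marker level in the model (0.171), with differences of -1.08 and -0.94 in the last pair of settings.

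H2-DMb2, the neighbouring beta chain gene, had between 11.091 and 11.11 in KO pools and between 10.95 and 11.088 in control pools, narrowly without overlap. Its difference was 0.08 (interval -0.08 to 0.25; limma, adjusted p = 0.674). The interval of H2-DMb2 thus excludes a change of the size seen for H2-DMb1, and the difference between the 2 genes was not tested. These paralogs are close in sequence, and how far the probe sets separate them was not tested. H2-DMa, the alpha chain, had 8.54, 8.92, 8.72 and 8.97 in KO pools and 8.81, 9.17, 9.11 and 9.17 in control pools. The groups overlapped at control pool 1, and the difference was -0.28 (interval -0.54 to -0.01; limma, adjusted p = 0.296).

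H2-Oa, the alpha chain of the H2-DM inhibitor H2-O, was the listed gene with the largest positive difference. It had 8.51, 8.66, 8.73 and 9.06 in KO pools, against 8.22, 8.39, 8.28 and 8.28 in control pools, and all KO pools lay above all control pools. The difference of 0.45 (SE 0.11, interval 0.20 to 0.70) missed the threshold (limma, adjusted p = 0.0586), and the adjusted p was under 0.05 in 4 of 22 alternatives (from 0.0220 to 0.172 over all of them). Without KO pools 1 and 2 the difference was 0.60 (adjusted p = 0.0507). H2-Ob, the beta chain of the same heterodimer, had between 6.80 and 7.06 in KO pools and between 6.60 and 7.54 in control pools, with a difference of 0.02 (interval -0.38 to 0.42; limma, adjusted p = 0.979). The 5 further class II genes together had 0 calls by limma, also at an unadjusted p under 0.05, and a median difference of -0.01.

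**Figure D3:**
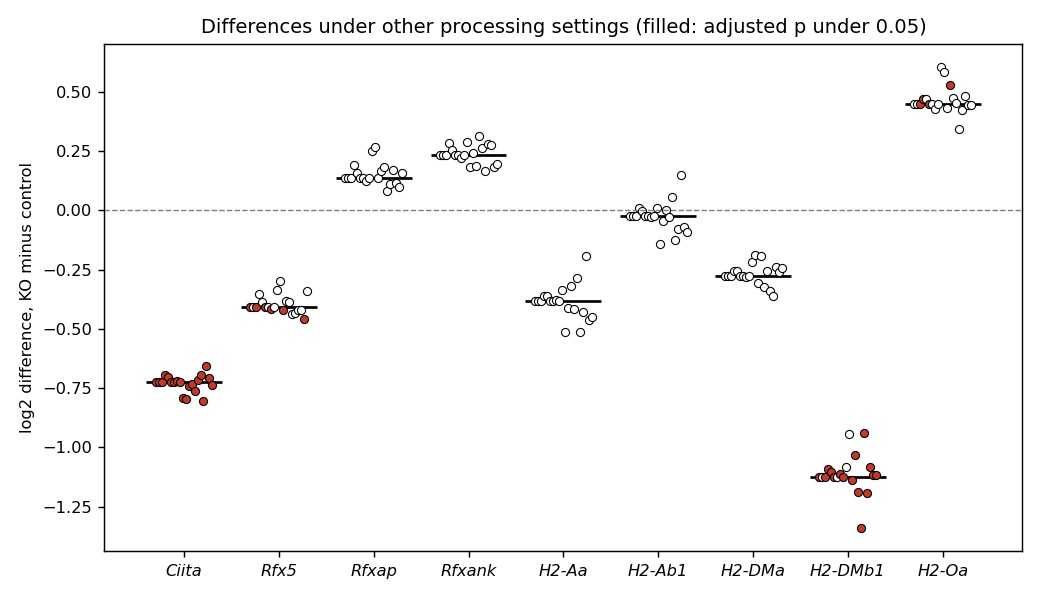
Log2 difference, KO minus control (vertical axis), of the 9 genes in the fit reported (line) and under the other processing settings (points, filled where the adjusted p was under 0.05; settings that change the threshold alone are left out). All points of Ciita are filled, those of Rfx5, H2-DMb1 and H2-Oa are partly filled, and those of H2-Ab1 lie on both sides of 0.

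Of the 82 measured genes in 7 lists around the pathway, the further class II genes included, 4 passed, 2 higher and 2 lower in KO. This is near the background of 3.59% of all genes and is no result about these lists. Of 17 measured inputs of Ciita and partners of RFX on class II promoters, Foxo1, a forkhead factor of the B lineage, was called. It averaged 8.82 ± 0.08 in KO and 8.40 ± 0.14 in control (SD, n = 4 each), without overlap, and rose by 0.42 (SE 0.09; limma, adjusted p = 0.0308). The call of Foxo1 was lost when any 1 pool was left out (adjusted p = 0.0525 to 0.0838), with differences from 0.35 to 0.45, and in 13 of 22 alternatives in all. Without KO pools 1 and 2 the difference was 0.49 (adjusted p = 0.0993), and with mean T cell marker level in the model it was 0.54 (adjusted p = 0.0559). The median of this list was 0.09.

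None of 12 chromatin partners of CIITA passed in limma, and 2 had an unadjusted p under 0.05, as did 15.3% of all genes. Those with the smallest p were the deacetylase gene Hdac9 at -0.27 (adjusted p = 0.188) and Kmt2d at -0.25 (adjusted p = 0.198), which encodes the methyltransferase MLL4. None of 7 other RFX family genes passed, 1 of them at an unadjusted p under 0.05. Rfx3, an RFX gene of ciliated cells, averaged 6.78 ± 0.15 in KO and 6.39 ± 0.13 in control (difference 0.39, limma, adjusted p = 0.0628), and Rfx1 differed by -0.18 (adjusted p = 0.432). The list medians were 0.00 and 0.10.

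Of 14 genes of endosomal processing, 2 fell and 1 rose, against 2.10% of all genes lower and 1.49% higher. Ctsh, the aminopeptidase cathepsin H, had 8.56, 8.60, 8.74 and 8.62 in KO pools 1 to 4, against 9.63, 9.51, 9.34 and 9.46 in control pools 1 to 4. The groups lay far apart relative to their spread, and it fell by 0.86 (SE 0.09, interval -1.05 to -0.66; limma, adjusted p = 0.000387). Ctsh passed in all 22 alternatives. Lgmn, the asparaginyl endopeptidase legumain, had 5.94, 6.07, 6.15 and 6.17 in KO pools and 6.80, 7.15, 6.36 and 6.77 in control pools. It fell by 0.69 (SE 0.14; limma, adjusted p = 0.0245), a call that ended when KO pool 1, KO pool 2, control pool 1 or control pool 4 was omitted (adjusted p at most 0.0718). Scarb2, a lysosomal membrane protein gene, stood at 7.99 ± 0.09 in KO and 7.47 ± 0.13 in control and rose by 0.51 (SE 0.09; limma, adjusted p = 0.0107). Without KO pools 1 and 2 the differences were -0.61 for Lgmn and 0.47 for Scarb2, and neither call was kept (adjusted p = 0.192 and 0.121). With mean T cell marker level in the model they were -0.70 and 0.41, again short of the threshold (adjusted p = 0.152 and 0.160). The list median was 0.00.

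**Figure D4:**
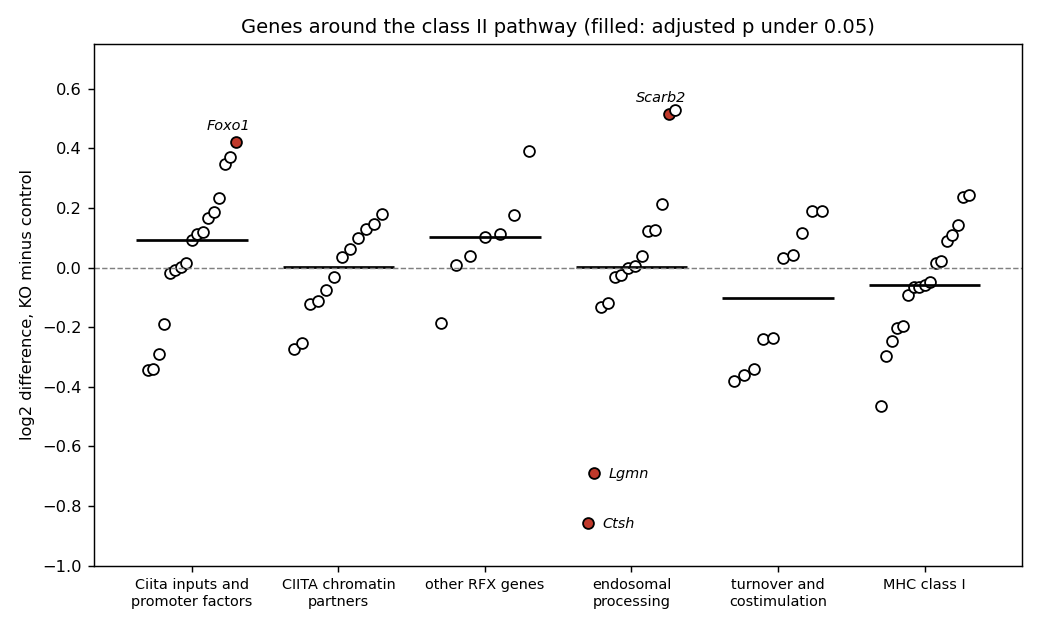
Log2 difference, KO minus control (vertical axis), of each measured gene of 6 lists around the class II pathway, with the list median as a line; filled points passed an adjusted p under 0.05 and are named. Ctsh and Lgmn are the lowest points of the 6 lists.

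None of 10 genes of class II turnover and costimulation passed in limma, 4 of them at an unadjusted p under 0.05, as did 15.3% of all genes. The smallest p belonged to the costimulatory ligand gene Icosl (-0.34, adjusted p = 0.140) and to the adhesion receptor gene Cd44 (-0.23, adjusted p = 0.221). None of 17 genes in a list of MHC class I genes, their regulator and their peptide loading passed either. Of these, 7 had an unadjusted p under 0.05 in limma, against 15.3% of all genes. Nlrc5, which encodes the class I transactivator and is a relative of Ciita, had between 4.36 and 4.97 in KO pools and between 4.93 and 5.28 in control pools. The groups overlapped at KO pool 1, and the difference of -0.46 (SE 0.13; limma, adjusted p = 0.0862) missed the threshold. Nlrc5 passed with mean T cell marker level in the model (-0.71; limma, adjusted p = 0.0410) and without KO pool 1 (-0.58; adjusted p = 0.0226). It did not pass without KO pools 1 and 2 (-0.61; limma, adjusted p = 0.0634), and its adjusted p reached 0.235 over the 22 alternatives. Tap2, a chain of the peptide transporter, differed by -0.30 (limma, adjusted p = 0.158). The medians of these lists were -0.10 and -0.06.

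Of the B-1a markers, Ms4a1 and Cd5 were bright in both groups. Ms4a1 had between 11.01 and 11.15 in KO and between 11.05 and 11.11 in control. Cd5, which defines B-1a cells, had between 7.26 and 7.71 in KO and between 7.26 and 7.63 in control. The part of T cells in the values of Cd5 was not tested. Of 11 measured B-1a markers, 3 fell in KO, as did 2.10% of all genes: Itgam (-1.68), Zbtb32 (-1.11) and Cd9 (-0.60). Differences were negative for 8 of the 11 and positive for 3. The groups did not overlap for 5, as was so for 10.5% of all genes. The mean of the B-1a markers per pool lay between 8.67 and 8.74 in KO and between 8.94 and 9.10 in control. Of 14 T cell markers, 13 had positive differences and limma called 0 (10 at an unadjusted p under 0.05, against 15.3% of all genes). Their mean per pool was 7.27, 7.07, 5.28 and 5.82 across the KO pools, against 5.54, 5.64, 4.89 and 4.67 across the controls. This list includes Cd2, which mouse B cells also express. All 12 NK markers had positive differences and 2 rose, as did 1.49% of all genes. The pool means of the NK markers lay between 4.34 and 5.52 in KO and between 3.64 and 4.44 in control. Without KO pools 1 and 2, the pools with the highest T cell marker means, the difference of Ciita was -0.79 (limma, adjusted p = 0.0264). With that mean as a covariate it was also -0.79 (adjusted p = 0.0248).

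Markers of macrophages and dendritic cells, which also express class II molecules, gave no calls, and neither did markers of mast cells. Of 16 peritoneal macrophage markers limma called 0 (2 at an unadjusted p under 0.05, against 15.3% of all genes). Their mean per pool lay between 4.55 and 4.99 in KO and between 4.495 and 5.36 in control, where pool 1 was highest. Of 10 dendritic cell markers limma called 0 (4 at an unadjusted p under 0.05, against 15.3% of all genes). Differences were positive for 7 of the 10 and negative for 3. Pool means of these markers lay between 3.90 and 3.98 in KO and between 3.79 and 3.89 in control. Of the 10, 5 were below the median of all values on all arrays. Control pool 2, the highest for H2-Aa and H2-Ab1, had the highest control mean of the dendritic cell markers (3.89). It also had the highest control mean of the T cell (5.64) and NK markers (4.44). Every KO pool had a higher mean of the dendritic cell markers than control pool 2. Of 8 mast cell markers limma called 0, none at an unadjusted p under 0.05, with pool means between 3.204 and 3.61 in KO and between 3.02 and 4.11 in control. With the macrophage marker mean as a covariate the differences of Ciita, Rfx5 and H2-DMb1 were -0.74, -0.42 and -1.14, and all 3 passed (limma, adjusted p = 0.00380, 0.0387 and 0.0226). The part of dendritic cells in the values of the I-A chains was not tested.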

How the data were processed

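Per the submitters' processing notes, the authors made the deposited log2 values with RMA in R 3.2.2; no package or genome build is named there. Of 41345 probe sets, 23521 had exactly 1 annotated symbol and 1814 several, which were not named. For 1082 genes with more than 1 probe set, the one with the highest mean was kept, which left 22180 genes. Differences, KO minus control, were tested two-sided by limma (version 3.58.1, run under R 4.3.3) with moderated variances and Benjamini-Hochberg adjustment over all genes, after a test on simulated data. The arrays' number limits the precision. The genes, lists, tests and alternatives were chosen with earlier results of these data known. Named were the listed genes, all further class II genes, Paxip1, the 3 genes most like Ciita and, per other list, up to 4 called genes or the 2 with the smallest p; B-1a markers and pools were named after their values were seen. No batch is labelled. The gene that drives the Cre allele is not reported here.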

Additional observations from a re-analysis of the deposited data

Results flagged for a closer look

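The highest or lowest of 4 pools stood far from the others in 8 of the 54 groups looked at (27 named genes in 2 genotypes), by Dixon's gap over range beyond its 95% critical value, which chance passes in about 1 of 20 groups. Control pool 2 was the high one for H2-Aa (8.75, nearest other control pool 8.05), H2-Ab1 (11.07, nearest 10.40), H2-Ob (7.54, nearest 6.74) and Rfx1 (6.22, nearest 5.89). Control pool 1 was low for H2-DMa (8.81, nearest 9.11) and high for Icosl (5.06, nearest 4.71). Scarb2 was low in KO pool 3 (7.84, nearest 8.02) and in control pool 4 (7.28, nearest 7.51).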

How the results depend on the processing

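Of the 9 genes, 3 passed in the fit reported, against 3.59% of all genes. Without KO pool 1, and with quantile normalization repeated, the number was also 3, but H2-Oa, which rose, took the place of Rfx5. The number was 1, Ciita, with all probe sets tested, without moderation of the variance, at an adjusted p under 0.01, after omission of KO pools 1 and 2 and with mean T cell marker level as covariate, and 2 to 3 when 1 pool was left out. The 4 pathway calls became 2, 2, 1, 1 and 2 in these 5 settings, 7 among genes above the median value, 8 at an adjusted p under 0.10, and 2 to 4 without 1 pool, with 2 each without KO pool 2 and without control pool 4. Over all genes the 797 calls became 303 without moderation, 311 and 1202 at the thresholds of 0.01 and 0.10, 320 after omission of KO pools 1 and 2, 287 given the covariate, and 479 to 758 without 1 pool; they numbered 498 without KO pool 2 and 530, 497 and 479 without control pools 2, 3 and 4. The labels' replicate numbers were not taken to pair the pools: deviations of same-numbered pools correlated at 0.036 to 0.11, and KO pools 1 and 2, but not 3 and 4, correlated best with their own number. A replicate block left 2 of the 3 calls among the 9 genes (Rfx5 lost, adjusted p = 0.0642), 4 pathway calls and 666 calls in all. Genes near 0 changed sign without a call. H2-Ab1 became 0.01 with quantile normalization repeated (0.0084) and without KO pools 1 and 2 (0.010), and ran from -0.12 to 0.15 without 1 pool. H2-Eb2, left out by the filter on the median value, became 0.0098 with arrays centred on their medians and ran from -0.13 to 0.19 without 1 pool. H2-Ob became -0.077 with the T cell and -0.013 with the macrophage marker mean as covariate, and ran from -0.078 to 0.23 without 1 pool. The cause of these changes was not tested.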
